A study of Mus musculus with 45 samples.

Results

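The genes described here are 9 mouse aldehyde dehydrogenases, taken by name and matched to Ensembl identifiers: *Aldh3a1*, *Aldh3a2*, *Aldh3b1*, *Aldh2*, *Aldh1b1*, *Aldh1l1*, *Aldh4a1*, *Aldh6a1* and *Aldh9a1*. They are 9 of the 21 aldehyde dehydrogenase genes listed for this work and 9 of 39179 genes in the count files. All 9 passed the filter of more than 4 reads in some mouse, as 17464 genes did. *Aldh3a1* passed it only through mice at 3, 10 and 30 µg/kg. RNA-Seq was done on the livers of 45 female C57BL/6 mice in 9 groups of 5. A group was gavaged with sesame oil vehicle or with the dioxin TCDD (2,3,7,8-tetrachlorodibenzo-p-dioxin) every 4 days for 28 days, at 8 doses in steps of about 3-fold from 0.01 up to 30 µg/kg. The sample labels also describe the mice as ovariectomized and the gavage as daily, which the published methods do not. The comparison asked at which dose *Aldh3a1*, a member of the aryl hydrocarbon receptor (AhR) gene battery, responded, and whether the other members moved with it.

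Aldehyde dehydrogenases oxidize aldehydes to carboxylic acids with NAD or NADP as the electron acceptor, and in liver they clear aldehydes from ethanol, lipid peroxidation, amino acids and one-carbon metabolism. TCDD binds the AhR, which pairs with ARNT and binds DNA elements with the core GCGTG to activate genes such as *Cyp1a1*. *Aldh3a1*, which oxidizes aromatic and medium-chain aldehydes, is abundant in cornea and is known as an AhR-inducible gene with very low expression in untreated liver.

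Between 11767284 and 56509899 reads per mouse fell on genes, with a median of 17225047. Values are CPM (reads divided by the TMM-scaled library size), and a gene was called at a Benjamini-Hochberg adjusted p under 0.05 in an edgeR quasi-likelihood fit of all 45 mice. The labels do not say how the mice relate to cages or sequencing pools, so p-values measure the spread between these mice. In bulk liver, fewer cells of a type and less RNA per cell cannot be told apart. Hepatocyte markers (5 measured genes, *Alb* among them) summed to between 105300 and 136800 CPM in vehicle livers and between 100200 and 150500 CPM at 30 µg/kg, and 2 of the 5 were called lower at 30 µg/kg, *Apoa1* at -1.67 and *Ttr* at -0.34 on the log2 scale (edgeR). In the 0.01 µg/kg group, replicate 2 held *Xist* at 2.93 CPM against at least 1112 CPM in every other mouse, with 0 reads on 4 Y-linked genes, and replicate 5 had a summed leukocyte marker level of 603 CPM against 113 to 211 CPM in the rest of its group. No member was called at that dose with or without these mice.

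The region upstream of the start is shown for the member with the clearest rise, *Aldh3b1*, for the other rising member with a RefSeq window, *Aldh1b1*, and for the member with the clearest fall, *Aldh3a2*. The windows searched run from 250 bases before to 50 bases after the start (RefSeq, GRCm38.p6), and the 250 upstream bases are printed 5′ to 3′ on the strand of the gene, with GCGTG or its reverse complement CACGC in capitals. The printed stretches are chr19:3929779-3930028 (minus strand) for *Aldh3b1*, chr4:45798772-45799021 (plus strand) for *Aldh1b1* and chr11:61267187-61267436 (minus strand) for *Aldh3a2*.
Aldh3b1: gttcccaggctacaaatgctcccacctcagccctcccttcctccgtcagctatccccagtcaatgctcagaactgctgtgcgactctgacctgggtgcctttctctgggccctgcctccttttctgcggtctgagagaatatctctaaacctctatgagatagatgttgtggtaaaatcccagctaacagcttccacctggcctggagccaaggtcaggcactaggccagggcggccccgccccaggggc
Aldh1b1: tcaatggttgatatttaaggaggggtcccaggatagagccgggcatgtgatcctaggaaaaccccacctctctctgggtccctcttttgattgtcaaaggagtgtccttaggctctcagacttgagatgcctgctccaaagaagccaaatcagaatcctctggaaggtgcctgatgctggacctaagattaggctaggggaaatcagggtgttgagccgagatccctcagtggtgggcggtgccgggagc
Aldh3a2: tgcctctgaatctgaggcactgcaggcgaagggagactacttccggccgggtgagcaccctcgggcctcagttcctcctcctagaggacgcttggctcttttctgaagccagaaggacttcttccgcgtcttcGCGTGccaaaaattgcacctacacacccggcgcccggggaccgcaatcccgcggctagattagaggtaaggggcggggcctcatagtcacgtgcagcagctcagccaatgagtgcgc
The windows of *Aldh3b1* and *Aldh1b1* held no GCGTG on either strand. The *Aldh3a2* window held 1, which began 117 bases before the start and was also a match to the longer form TNGCGTG. Windows were available for 7 of the 9 members (8 windows, since *Aldh6a1* has 2), and 4 of the 8 held GCGTG: those of *Aldh9a1*, *Aldh4a1*, *Aldh3a2* and 1 of *Aldh6a1*. The longer form was in the windows of *Aldh3a2* and *Aldh9a1* and in no other member window. In all, 32.4% of 32851 windows held GCGTG and 5.07% held TNGCGTG. A match describes the letters and is not evidence of binding. No window was used for *Aldh3a1* or *Aldh2*.

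*Aldh3a1* (ENSMUSG00000019102, GRCm38 chr11:61207537-61218421, plus strand) was nearly silent in these livers and rose at the highest doses. It had 0 reads in each of the 5 vehicle mice and in each of the 5 mice at 0.01 µg/kg. Between 0.03 and 1 µg/kg only 7 of 20 mice had any read, with at most 2 reads in a mouse. At 3 µg/kg the mice had 1, 5, 4, 2 and 0 reads (0.0731, 0.104, 0.140, 0.129 and 0 CPM). At 10 µg/kg they had 1, 5, 1, 11 and 14 reads (0.0325, 0.264, 0.0634, 0.479 and 0.491 CPM), and at 30 µg/kg 5, 15, 21, 7 and 11 reads (0.225, 0.859, 0.743, 0.390 and 0.882 CPM). Every mouse at 10 and at 30 µg/kg therefore had a read and every vehicle mouse had none, while 1 mouse at 3 µg/kg overlapped the vehicle. The whole gene rested on 112 reads in 45 mice.

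**Figure D1:**
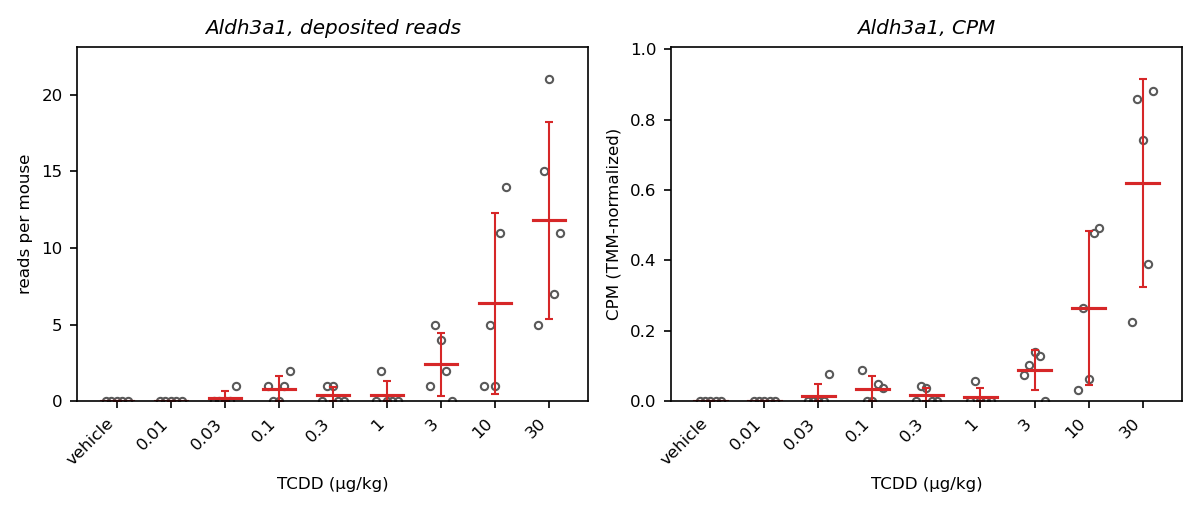
*Aldh3a1* in each mouse by TCDD dose (µg/kg), as deposited reads (left axis in reads per mouse) and as TMM-normalized CPM (right panel). Circles are mice, the long red bar is the group mean and the whiskers are ± SD cut at 0, n = 5 per group; vehicle and 0.01 µg/kg sit at 0 reads and 30 µg/kg reaches 21 reads.

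The gene was called at 10 µg/kg (adjusted p = 9.42e-04, edgeR), then at 30 µg/kg (adjusted p = 7.38e-06), and over all doses together (adjusted p = 8.16e-08). Since the vehicle mice had no reads, only a lower bound on the fold change can be given, against a floor of 3 reads over the vehicle group (0.0366 CPM). Pooled over its mice, the 30 µg/kg group was at 0.5998 CPM, at least 16.4-fold higher than that floor, and the 10 µg/kg group was at 0.273 CPM, at least 7.48-fold higher. At 3 µg/kg the pooled level of 0.0875 CPM was at least 2.39-fold higher than the floor, but the gene was not called (adjusted p = 0.0702, edgeR). That dose passed the threshold without replicate 5 of the same group (adjusted p = 0.0459, edgeR) and without replicate 1 of the 10 µg/kg group (adjusted p = 0.0489, edgeR). At 0.03, 0.3 and 1 µg/kg the group totals of 1, 2 and 2 reads were at or under the floor, so a change was not detectable at this depth. The 0.1 µg/kg group had more, 4 reads in 3 mice. Its pooled 0.0338 CPM was still under the vehicle floor, and the gene was not called (adjusted p = 0.893, edgeR). Against all reads on the 21 family genes, *Aldh3a1* made up 0.00738% at 30 µg/kg (95% Wilson interval 0.00572% to 0.00951%, 59 of 799915 reads) and 0.00311% at 10 µg/kg (0.00220% to 0.00439%, 32 of 1029589 reads). The vehicle group had 0 of 714986 reads, for which the upper Wilson limit was 0.000537% and the floor of 3 reads was 0.000420%. These intervals and floors cover counting error only.

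Most steps between neighbouring doses did not stand out from the spread for *Aldh3a1*. Of 8 steps tested by exact two-sided permutation of 5 mice against 5 on log2 CPM (prior count of 2), only the step from 1 to 3 µg/kg had an unadjusted p under 0.05, a rise of 0.75 with p = 0.0476. The step from 3 to 10 µg/kg was 0.77 (exact permutation p = 0.183) and that from 10 to 30 µg/kg was 1.13 (exact permutation p = 0.0952). The prior count draws log2 values together where reads are few, so the step sizes between 1 and 10 µg/kg understate the pooled rise. Pooled CPM went from 0.0209 (1 µg/kg) through 0.0875 (3 µg/kg) and 0.273 (10 µg/kg) to 0.5998 (30 µg/kg). The smallest p this design allows is 0.00794. A Hill curve on log2 CPM placed the dose of the midpoint at 15.3 µg/kg, but leaving out a single mouse moved it from 6.80 to 1000 µg/kg, the upper bound of the fit, so the curve did not level off within the doses given.

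The rise of *Aldh3a1* was also set against each other member within each mouse, as the log2 ratio of *Aldh3a1* to that member (log2 CPM, prior count of 2), for 8 members at 8 doses, 64 comparisons in all with unadjusted exact permutation p-values. At 30 µg/kg, 7 of 8 ratios were higher in every treated mouse than in any vehicle mouse, each with exact permutation p = 0.00794. The exception was *Aldh3b1*, against which the ratio changed by 0.67 (exact permutation p = 0.111). The other 7 changes ran from 2.07 against *Aldh1b1* to 3.52 against *Aldh3a2*. At 10 µg/kg, 5 of 8 ratios were separated from vehicle, and those against *Aldh3b1* (-0.11, exact permutation p = 0.857), *Aldh1b1* (1.08, p = 0.0952) and *Aldh1l1* (1.17, p = 0.0714) were not. At 3 µg/kg 2 ratios were separated and 6 had p under 0.05. At 0.1 µg/kg, where *Aldh3a1* had 4 reads in all, 3 had p under 0.05. That against *Aldh3a2* (0.52, exact permutation p = 0.00794) was separated, so separation can rest on very few reads. At 0.03 µg/kg 1 ratio had p under 0.05, and at 0.01, 0.3 and 1 µg/kg 0 did. The log2 values of *Aldh3a1* are set by the prior count where it has no reads. With a prior count of 0.5, 8 of 8 ratios were separated at 30 µg/kg, the ratio to *Aldh3b1* included.

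Counting all members, 6 of 9 were called at 30 µg/kg, where 29.6% of all genes tested were called. Of these, 3 were higher (*Aldh3a1*, *Aldh3b1* and *Aldh1b1*, against 15.5% of all genes) and 3 were lower (*Aldh3a2*, *Aldh6a1* and *Aldh9a1*, against 14.1%). At 10 µg/kg 3 members were called (15.9% of all genes): *Aldh3a1* and *Aldh3b1* higher and *Aldh3a2* lower. At 3 µg/kg only *Aldh3b1* was called (7.54% of all genes). Below 3 µg/kg edgeR and DESeq2 called 0 of 9 members at every dose, where edgeR called 1.76% of all genes at 1 µg/kg. For the 4 doses below, in falling order, it called 0.464%, 0.0229%, 0.0573% and 0%. At an unadjusted p under 0.05 and in the same order from 1 µg/kg, edgeR counted 1, 0, 2, 1 and 0 members. Over all doses together 7 of 9 members were called, against 28.8% of all genes, the exceptions being *Aldh2* and *Aldh4a1*. At 30 µg/kg the mice of 4 members did not overlap the vehicle mice, against 19.9% of all genes tested. *Aldh3a1* is among these 4 and among those called, and it passed the filter on reads only through treated mice.

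*Aldh3b1* (ENSMUSG00000024885, chr19:3913491-3929808, minus strand), a relative of *Aldh3a1* that oxidizes medium- and long-chain aldehydes at membranes, rose from 3 µg/kg. Vehicle mice had 2.05, 1.21, 0.924, 1.55 and 1.52 CPM. At 3 µg/kg the values were 5.70, 4.41, 3.44, 3.87 and 3.31 CPM, at 10 µg/kg 6.75, 4.48, 5.52, 4.05 and 4.74 CPM, and at 30 µg/kg 6.85, 8.07, 5.55, 5.18 and 6.81 CPM. All mice at these doses were above all vehicle mice, and the 1 µg/kg mice (1.88 to 2.50 CPM) still overlapped them. The log2 fold change was 1.51 ± 0.24 (SE) at 3 µg/kg (adjusted p = 1.52e-05, edgeR), 1.82 ± 0.23 at 10 µg/kg (adjusted p = 1.33e-07) and 2.16 ± 0.23 at 30 µg/kg (adjusted p = 1.04e-09). Only the step from 1 to 3 µg/kg separated neighbouring doses, with a rise of 0.85 on the log2 scale (exact permutation p = 0.00794), and the steps above it were 0.30 (p = 0.151) and 0.35 (p = 0.0714). The midpoint of the fitted curve was 1.63 µg/kg, from 1.51 to 1.92 µg/kg when a mouse was left out.

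Some markers of other cell types were also called higher at doses where *Aldh3b1* was called, few of them at 3 µg/kg. Of 10 macrophage and leukocyte markers, 4 were called higher at 30 µg/kg (*Ptprc*, *Cd68*, *Csf1r* and *Itgam*) and 0 lower, and 1 was called at 3 and at 10 µg/kg. At 3 µg/kg 1 of 5 stellate cell and 0 of 4 endothelial markers were called. Of all genes tested, 7.54% were called at 3 µg/kg, 15.9% at 10 µg/kg and 15.5% were called higher at 30 µg/kg. The summed level of the macrophage and leukocyte markers was 114 to 189 CPM in vehicle mice and 171 to 446 CPM at 3 µg/kg. It was 192 to 271 CPM at 10 µg/kg and 124 to 317 CPM at 30 µg/kg. The summed level was above that of all vehicle mice in every mouse at 10 µg/kg, as *Aldh3b1* was, and overlapped the vehicle at 3 and 30 µg/kg. Of 5 stellate cell markers 2 were called higher at 10 µg/kg and 2 at 30 µg/kg. They summed to 85.4 to 105 CPM in vehicle, 134.5 to 219 CPM at 10 µg/kg and 204 to 326 CPM at 30 µg/kg. Of 4 endothelial markers 2 were called higher at 10 µg/kg and 2 at 30 µg/kg. They summed to 90.0 to 115.7 CPM in vehicle, 117.5 to 142.6 CPM at 10 µg/kg and 104 to 164 CPM at 30 µg/kg. At 10 µg/kg both sums were above all vehicle mice in every mouse, and at 30 µg/kg the stellate sum was. None of the 4 biliary markers was called by edgeR at 30 µg/kg. No marker listed was at 0 in all mice. The part of the leukocyte, stellate and endothelial markers in the *Aldh3b1* result was not tested.

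Among the mitochondrial members, *Aldh1b1*, which like *Aldh2* oxidizes acetaldehyde, was called higher at 30 µg/kg and the other 3 were not. *Aldh1b1* (ENSMUSG00000035561, chr4:45799022-45804604, plus strand) had 118, 112, 86.3, 125 and 97.1 CPM in vehicle mice and 178, 196, 170, 125.4 and 222 CPM at 30 µg/kg. The groups did not overlap, although the lowest treated mouse exceeded the highest vehicle mouse by less than 1 CPM. The log2 fold change was 0.73 ± 0.21 (SE) at 30 µg/kg (adjusted p = 0.00797, edgeR) and 0.58 ± 0.21 at 10 µg/kg, where the gene was not called (adjusted p = 0.0530) but passed in 9 of the settings tried, the omission of replicate 3 of the 0.01 µg/kg group among them. None of its 8 steps between neighbouring doses had an exact permutation p under 0.05. At 0.01 µg/kg, replicate 3 stood at 272 CPM against 86.0 to 129 CPM in the rest of its group.

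*Aldh2* (ENSMUSG00000029455, chr5:121566027-121593824, minus strand), the main acetaldehyde-oxidizing enzyme of liver mitochondria, had a mean of 2071 ± 156 CPM (SD, n = 5) in vehicle mice and 1874 ± 194 CPM at 30 µg/kg. Its log2 fold change of -0.14 ± 0.09 (SE) was not called (adjusted p = 0.212, edgeR), and its sign turned without TMM scaling (0.07). Over the 8 doses its log2 fold changes stayed between -0.14 and 0.08. *Aldh4a1* (ENSMUSG00000028737, chr4:139622866-139649690, plus strand), which oxidizes glutamate semialdehyde in proline breakdown, had 309 ± 38 CPM (SD, n = 5) in vehicle mice and 312 ± 39 CPM at 30 µg/kg, and its difference of 0.02 ± 0.11 (SE) on the log2 scale was not called (adjusted p = 0.933, edgeR). It shares 1595 exonic bases on the same strand with *Gm21969*, so reads there could not be assigned to either gene. *Aldh6a1* (ENSMUSG00000021238, chr12:84430717-84451004, minus strand), the methylmalonate semialdehyde dehydrogenase of valine breakdown, fell at the highest dose. It had 671, 789, 807, 754 and 738 CPM in vehicle mice and 640.2, 599, 597, 729 and 525 CPM at 30 µg/kg, so the groups overlapped in 1 mouse. Its log2 fold change was -0.28 ± 0.08 (SE; adjusted p = 0.00915, edgeR), and -0.07 without TMM scaling (adjusted p = 0.486). The call was also lost in the fit of only vehicle and the dose (-0.29, adjusted p = 0.0514, edgeR). It shares 1078 exonic bases with *Bbof1* on the opposite strand, and the strand setting of the counting is not given in the sources used here.

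*Aldh3a2* (ENSMUSG00000010025, chr11:61223417-61267464, minus strand), the microsomal fatty aldehyde dehydrogenase, fell while its neighbour *Aldh3a1* rose. The 2 genes lie 4996 bases apart on opposite strands. *Aldh3a2* had 439, 577, 547, 493 and 548 CPM in vehicle mice, 276, 447, 360.2, 378 and 384 CPM at 10 µg/kg, and 300.3, 313, 282, 375 and 296 CPM at 30 µg/kg. All mice at 30 µg/kg were below all vehicle mice, and 1 mouse at 10 µg/kg was not. The log2 fold change was -0.50 ± 0.15 (SE) at 10 µg/kg (adjusted p = 0.0190, edgeR) and -0.73 ± 0.15 at 30 µg/kg (adjusted p = 2.25e-04, edgeR). The call at 10 µg/kg was lost without replicate 2 of the vehicle group or replicate 1 of the 10 µg/kg group (highest adjusted p = 0.0656, edgeR) and without TMM scaling (adjusted p = 0.0606). The fitted midpoint was 8.16 µg/kg (6.66 to 12.1 µg/kg when a mouse was left out).

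*Aldh1l1* and *Aldh9a1*, both cytosolic, showed small changes. *Aldh1l1* (ENSMUSG00000030088, chr6:90486427-90600203, plus strand), which converts 10-formyltetrahydrofolate to tetrahydrofolate, had 1735, 1911, 1244, 2347 and 1768 CPM in vehicle mice and 2490.0, 2724, 2746, 2121 and 2393 CPM at 10 µg/kg. At 30 µg/kg its values were 2235, 1734, 2139, 2940.0 and 2607 CPM, which overlapped the vehicle. Its log2 fold change was 0.47 ± 0.17 (SE) at 10 µg/kg (adjusted p = 0.0519, edgeR) and 0.37 ± 0.17 at 30 µg/kg (adjusted p = 0.0950, edgeR), so no single dose was called, while the test over all doses passed (adjusted p = 0.00221, edgeR). The 10 µg/kg difference passed the threshold in 15 of the settings tried, among them no TMM scaling, the filterByExpr filter and the fit of only vehicle and the dose. The 30 µg/kg difference passed without TMM scaling (adjusted p = 0.00488, edgeR), without replicate 4 of the vehicle group and without replicate 2 of the 30 µg/kg group. It shares 499 exonic bases with the antisense gene *Gm15756*. *Aldh9a1* (ENSMUSG00000026687, chr1:167349991-167368532, plus strand), which oxidizes an aldehyde intermediate of carnitine synthesis, had 353, 391, 327, 375 and 361 CPM in vehicle mice and 315, 307, 303, 352 and 273 CPM at 30 µg/kg. The groups overlapped in 1 treated mouse, and the log2 fold change of -0.22 ± 0.09 (SE) was near the threshold (adjusted p = 0.0425, edgeR). The call on *Aldh9a1* was lost in 13 of the settings tried, among them no TMM scaling (-0.01, adjusted p = 0.958) and the omission of any of 9 single mice.

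**Figure D2:**
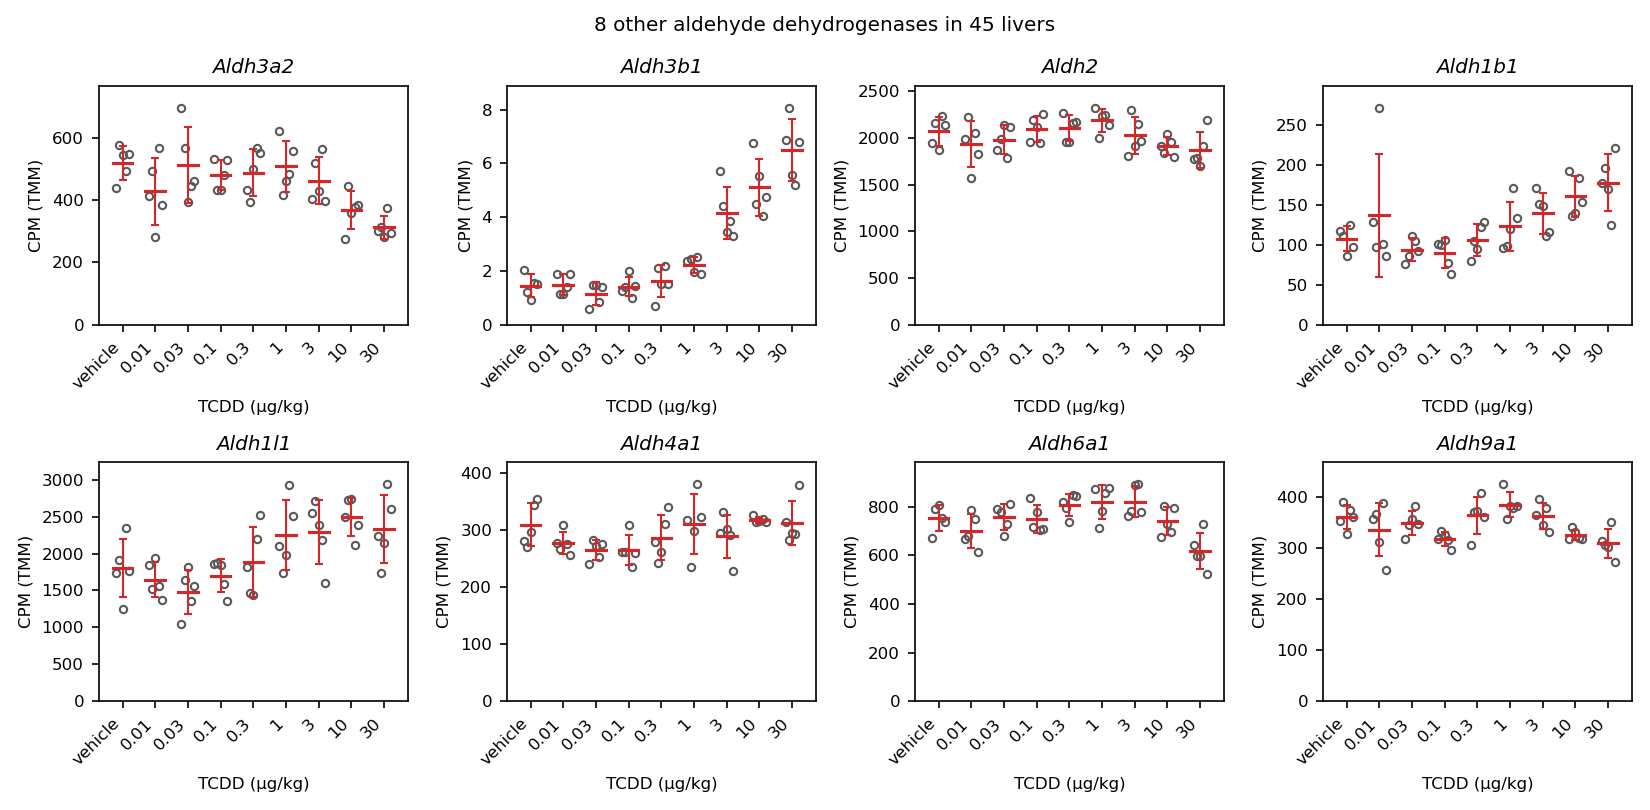
CPM (TMM-normalized) of the 8 other members in each mouse by TCDD dose (µg/kg). Circles are mice, long red bars are group means and whiskers are ± SD, n = 5 per group, each axis from 0; *Aldh3b1* climbs from a mean of 1.45 CPM to 6.49 CPM, *Aldh3a2* falls from 521 to 313 CPM, and the *Aldh1b1* mouse at 272 CPM stands above its 0.01 µg/kg group.

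Compared per length of exon, as RPKM, the members spanned a wide range of levels in vehicle livers. *Aldh2* at 404 ± 30 RPKM (SD, n = 5) and *Aldh1l1* at 399 ± 88 RPKM were the highest of the 21 family genes and did not differ beyond their spread. They were followed among the members by *Aldh6a1* (130.0 ± 9.2 RPKM), *Aldh9a1* (107 ± 7.0 RPKM), *Aldh3a2* (92.7 ± 9.8 RPKM), *Aldh4a1* (62.96 ± 7.7 RPKM) and *Aldh1b1* (46.8 ± 6.9 RPKM), while *Aldh3b1* was at 0.709 ± 0.206 RPKM and *Aldh3a1* at 0. The mice of *Aldh9a1* and *Aldh3a2*, neighbours in this order, overlapped. At 30 µg/kg *Aldh3b1* reached 3.17 ± 0.56 RPKM and *Aldh3a1* 0.319 ± 0.152 RPKM, both still below *Aldh1b1* at 77.5 ± 15.5 RPKM. The CPM summed over the 21 genes was 8708 ± 708 in vehicle mice and 8224 ± 852 at 30 µg/kg (exact permutation p = 0.341, n = 5 per group). Within that sum the share of *Aldh1l1* reads was 20.5 ± 3.0% in vehicle and 28.1 ± 2.9% at 30 µg/kg, and that of *Aldh3a2* was 6.02 ± 0.89% and 3.82 ± 0.34%.

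The doses at which members moved were compared with those of 8 AhR target genes, all 8 of which were called higher at 30 µg/kg. *Cyp1a2* was called from 0.03 µg/kg and *Cyp1a1* from 0.1 µg/kg, the cytochromes P450 that serve as the classic markers of AhR activation. *Cyp1b1*, the AhR repressor *Ahrr*, the quinone reductase *Nqo1* and the glucuronosyltransferase *Ugt1a6a* were called from 1 µg/kg. *Tiparp*, which also represses the AhR, was called from 3 µg/kg and the glutathione transferase *Gsta1* from 10 µg/kg. *Aldh3b1* was thus called from the same dose as *Tiparp*, and *Aldh3a1* from the same dose as *Gsta1*. Fitted midpoints ran from 0.0523 µg/kg for *Cyp1a1* to 3.86 µg/kg for *Tiparp*. Those of the other called members were 0.428 µg/kg for *Aldh1l1* (0.310 to 0.599 when a mouse was left out) and 2.43 µg/kg for *Aldh1b1* (1.78 to 3.79). For *Aldh6a1* and *Aldh9a1* the slope of the curve reached its bound of 8, so their midpoints are not given. In vehicle mice *Cyp1a1* had a mean of 7.50 CPM and *Aldh3a1* had 0 reads, and the part of read depth in the order of called doses was not tested.

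**Figure D3:**
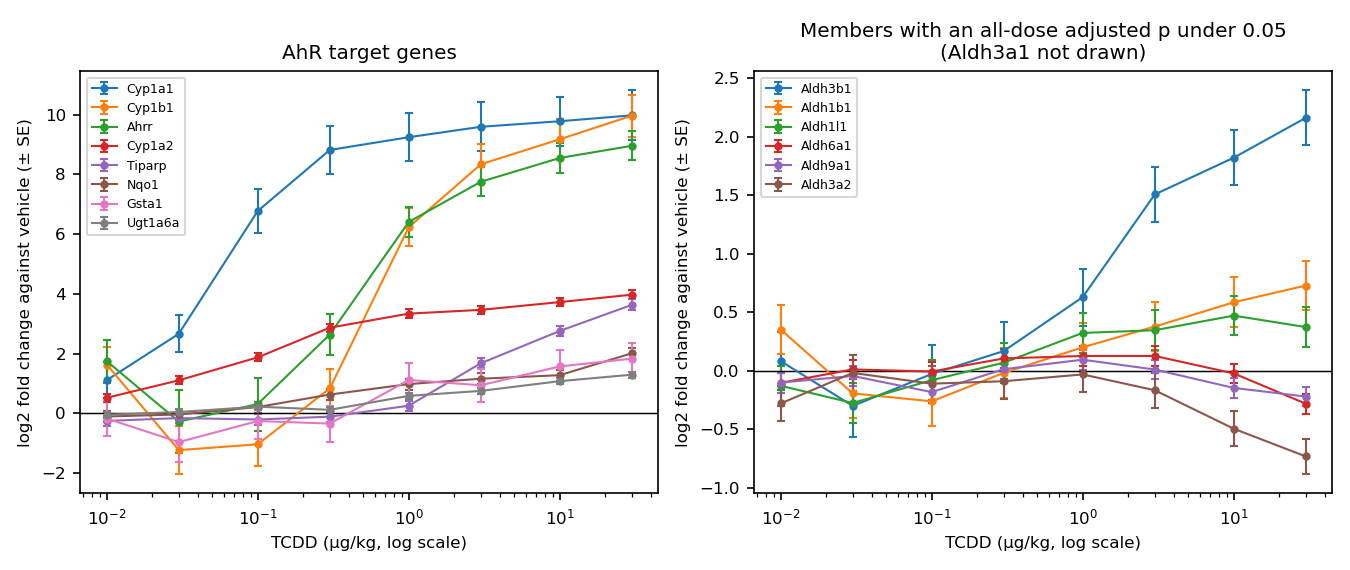
Log2 fold change against vehicle (± SE, edgeR) by TCDD dose (µg/kg, log axis) for 8 AhR target genes (left) and 6 of the 7 members called over all doses (right). *Aldh3a1* is not drawn, since its vehicle mice had 0 reads; *Cyp1a1* reaches 9.98 at 30 µg/kg on the left, and *Aldh3b1* reaches 2.16 and *Aldh3a2* -0.73 on the right.

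Among the other 12 aldehyde dehydrogenase genes, 3 were called at 30 µg/kg, 2 higher and 1 lower, where 29.6% of all genes tested were called. *Aldh16a1*, a family member thought to lack catalytic activity, was called from 1 µg/kg and reached a log2 fold change of 1.13 ± 0.08 (SE) at 30 µg/kg (adjusted p = 3.71e-14, edgeR). *Aldh7a1*, which acts in lysine breakdown, was called from 3 µg/kg and stood at 0.38 ± 0.09 at 30 µg/kg (adjusted p = 0.00121, edgeR). *Aldh1a1*, a retinaldehyde dehydrogenase, fell by 0.96 on the log2 scale at 30 µg/kg (SE 0.18, adjusted p = 7.12e-05, edgeR). *Aldh1l2*, the mitochondrial relative of *Aldh1l1*, was called lower at 10 µg/kg (-1.29 ± 0.38, adjusted p = 0.0163, edgeR) but not at 30 µg/kg or over all doses (adjusted p = 0.0757, edgeR). *Aldh3b2* and *Aldh3b3*, the neighbours of *Aldh3b1* in the family, were not called at 30 µg/kg (-0.70 ± 1.21 and -0.32 ± 0.48). *Aldh3b2* had only 61 reads in all 45 mice, at most 12 in a mouse, so its missing call says little at this depth. Without TMM scaling, 5 of the 12 were called.

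**Figure D4:**
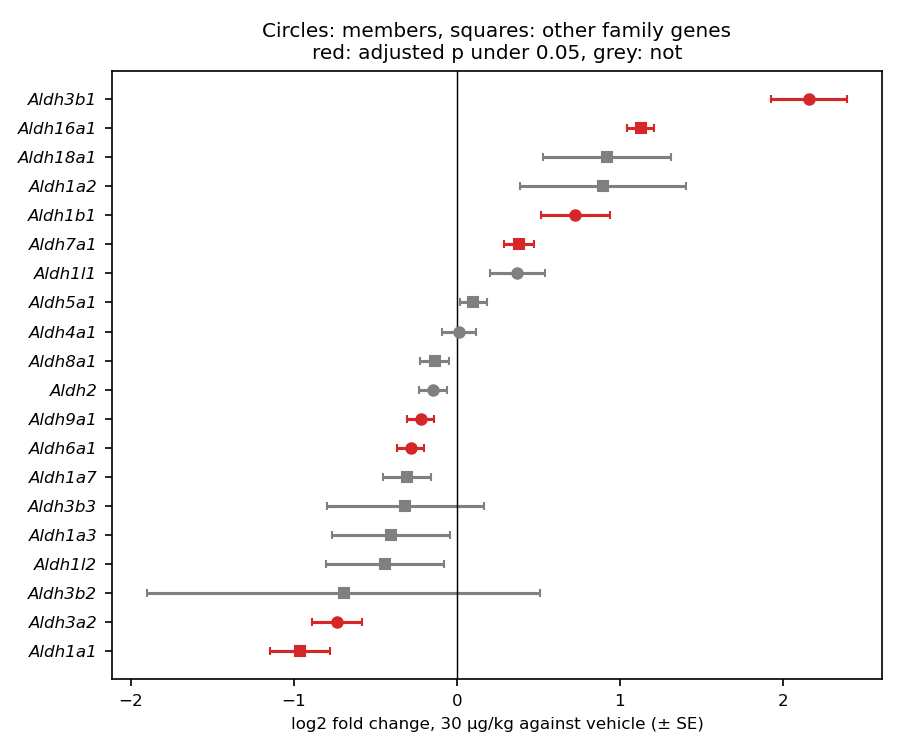
Log2 fold change at 30 µg/kg against vehicle (± SE, edgeR, 5 mice per group) for 20 aldehyde dehydrogenase genes, *Aldh3a1* left out. Circles are members and squares other family genes, red for adjusted p under 0.05; *Aldh3b1* (2.16) and *Aldh16a1* (1.13) lie at the top and *Aldh1a1* (-0.96) at the bottom.

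Genes of the pathways around the members were read as counts beside all genes tested, of which 15.5% were called higher and 14.1% lower at 30 µg/kg with a median log2 fold change of 0.02. Of 15 alcohol dehydrogenases, aldehyde oxidases and aldo-keto or carbonyl reductases, 7 were called higher and 2 lower (median 0.59). *Cbr3* was at 2.19 and the alcohol dehydrogenase *Adh4* at -1.48. Of 8 valine breakdown genes around *Aldh6a1*, 1 was higher and 4 lower (median -0.35), *Bckdhb*, *Hibadh*, *Hibch* and *Bckdha* being the lower ones. Of 4 proline and glutamate genes around *Aldh4a1*, 3 were lower (*Prodh2* at -0.87, *Glud1* at -0.86 and *Got2* at -0.41), and *Prodh* at 0.13 was not called. Of 3 acetaldehyde sources, *Cyp2e1* (-0.48) and *Cat* (-0.34) were lower, and *Adh1* (-0.10) was not called. Of 5 lipid genes listed with *Aldh3a2*, not all of which make fatty aldehydes directly, *Far1* (0.73) was higher and *Phyh* (-0.47) lower. *Hacl1* (-0.26), *Far2* (-0.24) and *Sgpl1* (-0.20) were not called. *Bbox1*, which makes carnitine, was the only carnitine synthesis gene matched besides *Aldh9a1* and stood at -0.56 (adjusted p = 2.33e-05, edgeR).

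The 5 genes whose log2 CPM followed *Aldh3a1* most closely over the 45 mice, among 13609 genes with a mean of at least 10 reads, were *Tiparp* (Pearson r = 0.87), *Cog4* (0.86), *Spon1* (0.85), *Ecel1* (0.85) and *Pnliprp1* (0.85). These mice share the dose series, and *Aldh3a1* had at most 21 reads in a mouse, so the values are descriptions only. Their edgeR changes at the highest dose included 3.63 for *Tiparp*, 2.95 for *Spon1* and 0.69 for *Cog4*, all on the log2 scale. Within 100 kb of *Aldh3a1* the annotation places *Usp22* (0.13 ± 0.11, SE) and *Tnfrsf13b* (0.50 ± 0.48), neither of which was called at 30 µg/kg, *Slc47a2*, which did not pass the filter on reads, and *Aldh3a2*.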

How the data were processed

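Liver RNA of 45 mice was sequenced as single 50-base reads. The authors aligned the reads to GRCm38 with Bowtie and TopHat 1.4.1 and counted them per Ensembl gene with HTSeq 0.6.1, leaving out reads with several alignments, and deposited raw counts without normalization. Sequencing pools are not in the labels. Groups came from the labels. Counts were scaled by TMM and fitted with edgeR 4.0.16 (R 4.3.3) in a quasi-likelihood model with 1 coefficient per group and all 45 mice. Genes with more than 4 reads in any mouse were tested (17464), with Benjamini-Hochberg adjustment within each dose and a threshold of 0.05. Log2 CPM used a prior count of 2. Exact two-sided permutation tests and Hill curves used Python 3.11.15 with scipy 1.17.1. No 2 mice of a group differed by as little as sampling noise (smallest chi-square per degree of freedom 13.7 over 90 pairs). The edgeR fit was tested on simulated data, with changes planted only in genes with many more reads than *Aldh3a1*, so that test does not cover *Aldh3a1*. Alternatives were DESeq2 1.42.0, other scalings, filters and prior counts, and each mouse left out. The members and lists were chosen with earlier results of these data known. All 9 members are named, and of the lists mostly the genes with the largest called change. Exonic lengths and positions are from GENCODE on GRCm38, a later release than the authors used. *Tmlhe* and *Tf* matched no gene and were left out. Counts for the folate list are not reported here.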

Additional observations from a re-analysis of the deposited data

Results flagged for a closer look

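In groups of 5 mice, a member's highest or lowest mouse was looked for that stood apart from the other 4 by more than Dixon's 95% critical value, which chance does in about 1 in 20 groups. Of 79 member and group pairs examined, 3 met this, a share under that rate. A mouse with any read meets it wherever the other 4 mice have 0 reads. *Aldh1b1* in replicate 3 of the 0.01 µg/kg group was at 272 CPM (5083 reads), against 86.0 to 129 CPM in the other mice. *Aldh3a1* in replicate 5 of the 0.03 µg/kg group was at 0.0773 CPM and in replicate 2 of the 1 µg/kg group at 0.0561 CPM, against 0 in the other mice of each group, and rested on 1 read and 2 reads.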

How the results depend on the processing

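TMM scaling mattered for small changes: without it the median log2 fold change of all genes at 30 µg/kg was 0.23 in place of 0.02, *Aldh2* turned from -0.14 to 0.067, *Aldh6a1* (-0.07) and *Aldh9a1* (-0.01) were no longer called and *Aldh1l1* (0.58) was. *Aldh4a1*, at 0.02, ran from -0.08 to 0.072 over single mice left out and was below 0 in 3 of these (-0.01, -0.02 and -0.08). At 3 µg/kg, leaving out single mice gave 1 to 2 members called and an adjusted p for *Aldh3a1* from 0.0459 to 0.129. At 10 µg/kg it gave 2 to 5 members, with 5 without replicate 3 of the 0.01 µg/kg group or replicate 5 of the 0.1 µg/kg group, and DESeq2's Wald test and the fit of only vehicle and the dose each called 5. At 30 µg/kg the count stayed from 4 to 6 over all settings, and *Aldh3a1*, *Aldh3b1*, *Aldh1b1* and *Aldh3a2* kept their calls wherever they were tested. The edgeR filterByExpr filter removed *Aldh3a1*, so it gave no value for that gene. The midpoint dose of *Aldh3a1* ran from 6.80 to 1000 µg/kg over single mice left out, and was 28.0 µg/kg on the CPM scale, 10.1 µg/kg with a prior count of 0.5 and 15.7 µg/kg with DESeq2 size factors. The causes were not tested. No paired analysis was possible because the replicate numbers were given in accession order and pair no mice. Depth limits *Aldh3a1*, which had at most 21 reads in a mouse. Of 1110 recomputed values, 1073 were graded the same as reported, 15 weaker, 5 stronger, 13 moved and 4 reversed. The grade of same allowed small shifts, since it covers the count of 4 to 6 members at 30 µg/kg. It also covers the counts of 0 members at the doses below 3 µg/kg, so the total is not a measure of how stable the called changes were.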
